A study of Mus musculus with 6 samples.

Results

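The Notch pathway was examined by RNA-seq in mouse cultures labelled as female germline stem cells (FGSCs), a label that the marker genes below do not bear out, through 10 genes taken by symbol from the 24728 symbols with a value in the deposited expression table. These were the receptors Notch1, Notch2 and Notch4, the ligands Jag1 and Jag2, the receptor-cleaving protease Adam10, the nuclear proteins Rbpj and Maml1, and the Hes family genes Hes1 and Hes6. The samples were 3 control cultures and 3 cultures with knockdown of CTCF (shCTCF), a zinc finger protein that anchors chromatin loops. In the shCTCF group a lentivirus carried a short hairpin RNA against Ctcf and the transduced cells were selected with puromycin, whereas the treatment of the control is not further described. All 6 cultures were of strain C57BL/6 per the labels, had been kept for more than 20 passages and grew on inactivated STO fibroblast feeders, which share the dish with the FGSCs. The methods derive the line from ovaries of neonatal Ddx4-Cre;mT/mG mice, in which Cre is driven by the promoter of a germ cell gene. Because the labels do not say whether the replicates were separate cultures, the p-values measure the spread between these samples, which may be technical.

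Notch receptors are membrane proteins that are activated by ligands of the Jagged and Delta families on a neighbouring cell. Ligand binding lets ADAM10 and then the γ-secretase complex cut the receptor, and the released intracellular part enters the nucleus, where it binds RBPJ and recruits MAML coactivators to target genes such as those of the Hes and Hey families. Without the intracellular part, RBPJ holds corepressors at the same sites. In the ovary the pathway is best known for signalling between germ cells and the pregranulosa cells around them, and in blood for the choice of cell lineage.

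The targeted gene checked the labels. Ctcf had 58.2, 56.1 and 53.5 FPKM (fragments scaled to transcript length and to the mapped fragments of the library) in controls 1, 2 and 3 and 0.740, 0.550 and 0.629 FPKM in the shCTCF samples. This check rests on FPKM alone, as Ctcf had 0 counts in every sample, controls included. Markers of the labelled cell type were nearly absent from these RNA-seq values. In contrast, the paper reports its long-term FGSC cultures as positive by RT-PCR for Ddx4, Pou5f1, Dppa3, Gfra1, Dazl and Ifitm3, and by staining for the Ddx4 protein. Of 8 germ cell markers, 7 stayed under 1 FPKM in every sample (Ddx4, Pou5f1, Dppa3, Gfra1, Dazl, Sohlh1 and Figla), with Dppa3, Gfra1 and Figla at 0, and the list summed to between 0 and 1.21 FPKM in controls and between 10.7 and 11.5 FPKM after knockdown, nearly all of it Ifitm3. A list of 10 mast cell and haematopoietic markers summed to between 1657 and 1731 FPKM in controls and between 2426 and 2547 FPKM in shCTCF samples. Its members did not move together, as 3 of the 7 tested rose, 1 fell and 3 did not pass the threshold in limma. Named after their values were seen, Kit reached 541 to 800 FPKM, Gata2 467 to 569 FPKM and Spi1 60.4 to 66.9 FPKM over the 6 samples, Cpa3 fell 3.19-fold and Hdc rose 20.5-fold, whereas the mast cell markers Fcer1a, Ms4a2 and Tpsb2 stayed under 1 FPKM, Fcer1a at 0. Sums of the 10 fibroblast markers were 10.1 to 10.8 FPKM against 8.62 to 8.97 FPKM with Col3a1 and Lum at 0 and with 2 of the 4 tested up and 2 down, those of 6 endothelial markers were 1.07 to 1.43 FPKM against 1.81 to 2.07 FPKM with Cdh5, Tie1 and Emcn at 0, and those of 6 ovarian somatic markers were 0.0558 to 0.434 FPKM against 0.380 to 0.499 FPKM with Foxl2, Fshr and Inha at 0. Apart from the ovarian somatic list, whose ranges overlapped, these sums differed between the groups without overlap, and their part in the Notch results was not tested. In bulk samples, fewer cells of a type and less RNA per cell cannot be told apart.

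Control replicate 2 stood apart from the other libraries. It held 1686052 counts, compared with 5322636 to 7044272 in the others, and it deviated from its group with the GC content of exons (Spearman's rho 0.628 and Pearson's r 0.520 across 9962 genes, which are not independent replicates). Among the 8 members with a mean of at least 1 FPKM the direction, though not the exact order, went with GC content. Adam10, Rbpj and Hes1, with 42.2%, 44.9% and 50.7% GC, were 0.49, 0.64 and 0.50 lower in control replicate 2 than in the mean of the other 2 controls on the log2(FPKM + 1) scale, whereas Notch2, Maml1, Notch1, Hes6 and Jag2, with 53.6% to 61.3% GC, were 0.18 to 0.72 higher. The Rbpj value is a sum over transcripts, of which NM_009035 was at 0 FPKM in control replicate 2 and at 6.52 and 3.03 FPKM in controls 1 and 3. Its deviation therefore cannot be set down to GC content alone. Values without control replicate 2 are given for the members and for the counts of called genes.

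**Figure D1:**
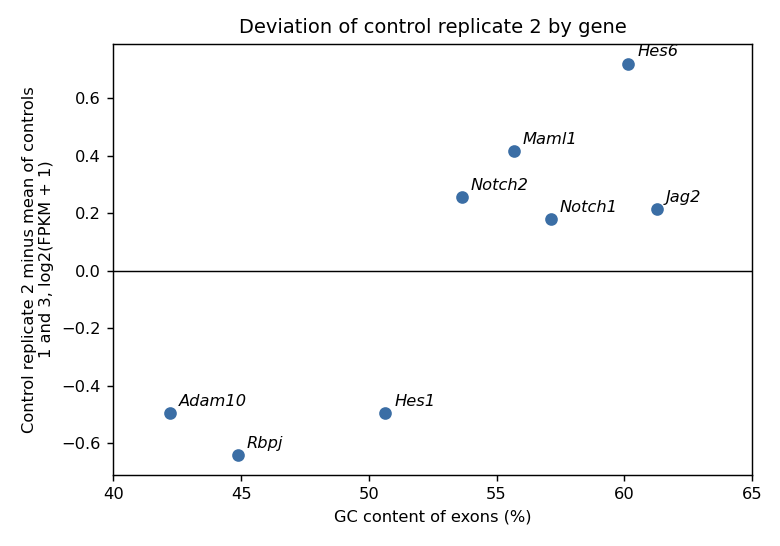
Difference on the log2(FPKM + 1) scale between control replicate 2 and the mean of controls 1 and 3 (vertical axis) against the GC content of the exons in percent (horizontal axis), for the 8 members with a mean of at least 1 FPKM over the 6 samples. Each point is 1 gene; Adam10, Rbpj and Hes1 lie below 0 and the 5 others, all above 53% GC, lie above 0.

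The upstream sequences of Notch2, Notch1 and Jag2 are shown because these genes kept their calls in both tables of the study under all alternatives run. The promoter table from RefSeq matched 9 of the 10 members and did not match Hes1. The 250 bases before the start were found by exact match in mm9, the build of the files, and they are printed on the strand of the gene. Notch2 lies on the plus strand (promoter chr3:97817211-97817460, gene chr3:97817461-97954290, 34 exons), Notch1 on the minus strand (promoter chr2:26359343-26359592, gene chr2:26313422-26359342, 34 exons) and Jag2 on the minus strand (promoter chr12:114167707-114167956, gene chr12:114146801-114167706, 26 exons). Capitals mark matches, on either strand, to TGGGAA (the letters bound by RBPJ), AGGNGGC (part of the CTCF motif) or CACNAG (the N box of Hes proteins).
Notch2: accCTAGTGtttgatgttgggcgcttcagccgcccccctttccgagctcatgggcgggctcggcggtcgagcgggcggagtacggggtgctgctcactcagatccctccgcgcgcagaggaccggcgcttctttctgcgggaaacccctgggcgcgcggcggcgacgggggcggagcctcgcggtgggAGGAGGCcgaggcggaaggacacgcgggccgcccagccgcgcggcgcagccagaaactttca
Notch1: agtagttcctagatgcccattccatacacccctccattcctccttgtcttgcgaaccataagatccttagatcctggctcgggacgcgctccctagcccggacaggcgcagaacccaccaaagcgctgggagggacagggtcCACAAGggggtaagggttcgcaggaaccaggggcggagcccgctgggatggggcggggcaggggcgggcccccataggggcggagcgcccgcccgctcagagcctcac
Jag2: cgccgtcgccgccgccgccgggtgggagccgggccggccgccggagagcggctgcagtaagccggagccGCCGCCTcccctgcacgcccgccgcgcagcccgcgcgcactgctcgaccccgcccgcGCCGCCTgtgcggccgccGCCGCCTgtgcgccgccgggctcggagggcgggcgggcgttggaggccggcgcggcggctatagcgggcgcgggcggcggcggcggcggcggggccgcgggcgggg
The Notch2 promoter held 1 AGGNGGC match and 1 CACNAG match, the Notch1 promoter held 1 CACNAG match only, and the Jag2 promoter, with 87.2% GC, held 3 AGGNGGC matches. Such letters are common, as 25% of all 32851 RefSeq promoters of this length held AGGNGGC, 36.7% held CACNAG and 21.6% held TGGGAA. Of the members in the table, Rbpj was the only one whose promoters held TGGGAA, with 2 matches in one promoter and 1 in the other, which overlaps it. A match describes these letters only and is not evidence of binding.

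The receptors changed in opposite directions after CTCF knockdown. Notch2 fell and Notch1 rose, so that the more abundant receptor transcript of the control cells was no longer the more abundant one in shCTCF cells. Notch2 (NM_010928) measured 28.0, 33.0 and 27.1 FPKM in controls 1, 2 and 3 and 8.69, 9.55 and 9.38 FPKM in shCTCF samples 1, 2 and 3. Every shCTCF value lay below every control value, and the group means were 29.4 ± 3.22 and 9.21 ± 0.460 FPKM (SD, n = 3 each), a 3.19-fold lower level. The log2 fold change on log2(FPKM + 1), which understates the change of low genes, was -1.57 ± 0.10 (SE; adjusted p = 3.7e-06 in limma). Without control replicate 2 it was -1.48, and in the counts -1.37. Gene counts for Notch2 were 3351, 1014 and 3443 in controls and 945, 948 and 1189 in shCTCF samples, and in edgeR the change was -1.46 ± 0.09 on the log2 scale (adjusted p = 2.2e-08).

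Notch1 (NM_008714) measured 5.05, 5.71 and 4.79 FPKM in controls and 11.4, 10.3 and 11.1 FPKM in shCTCF samples. The groups did not overlap, and the means of 5.18 ± 0.474 and 10.9 ± 0.576 FPKM differed 2.11-fold. In limma the log2 fold change was 0.95 ± 0.09 (adjusted p = 4.9e-05), and without control replicate 2 it was 1.01, and in the counts 1.35. In the counts Notch1 had 526, 159 and 531 fragments in controls and 1075, 886 and 1194 in shCTCF samples, with a log2 fold change of 1.27 ± 0.09 in edgeR (adjusted p = 1.5e-07). Other annotated transcripts share part of the Notch1 exons, of which 88.8% of bases belong to Notch1 alone, and the count table leaves out fragments that touch the shared bases.

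Notch4, a receptor best known from blood vessel endothelium, was close to the limit of detection. It had 8, 4 and 1 counts in controls and 20, 15 and 21 counts in shCTCF samples, where 3 counts are taken as the floor of detection, and it stayed under 0.3 FPKM in every sample. Scaled by the TMM factors of edgeR it exceeded every control in each of the shCTCF samples, with an edgeR log2 fold change of 1.97 ± 0.55 (adjusted p = 0.00676). It passed the filter on counts only through the shCTCF samples. This value rested on few counts, as it was 2.37 without control replicate 2, 2.47 without control replicate 1 and 1.22 without control replicate 3 (adjusted p = 0.0419 in edgeR). On FPKM the groups overlapped, since control replicate 2 had 0.219 FPKM and shCTCF samples had 0.199, 0.201 and 0.256 FPKM, and Notch4 was below the mean of 1 FPKM required for the limma test. Notch3, which was not among the 10 genes, was the remaining receptor, with 1.48, 1.26 and 1.61 FPKM in controls and 1.83, 1.84 and 1.30 FPKM in shCTCF samples. It did not pass the threshold on FPKM (log2 fold change 0.12, adjusted p = 0.474 in limma) and passed it on counts (log2 fold change 0.40, adjusted p = 0.0240 in edgeR).

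Within each sample the ratio of Notch2 to Notch1 does not depend on how libraries are scaled. The ratio of FPKM was 5.54, 5.79 and 5.65 in controls and 0.762, 0.928 and 0.843 in shCTCF samples. Thus the ratio varied little among replicates, control replicate 2 included, and separated the groups (means 5.66 ± 0.125 and 0.844 ± 0.0831). An exact two-sided permutation test gave p = 0.1, the smallest value possible with 3 samples against 3. Summed over the 4 receptor genes, FPKM fell from 36.1 ± 3.62 to 22.0 ± 0.121, again without overlap and with p = 0.1 in the exact test. Notch2 made up 81.3% ± 0.747 of this sum in controls and 41.8% ± 2.27 in shCTCF samples, and Notch1 made up 14.4% ± 0.210 and 49.7% ± 2.35. Notch3 accounted for 4.06% ± 0.859 and 7.53% ± 1.41, and Notch4 for 0.289% ± 0.252 and 0.992% ± 0.145.

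**Figure D2:**
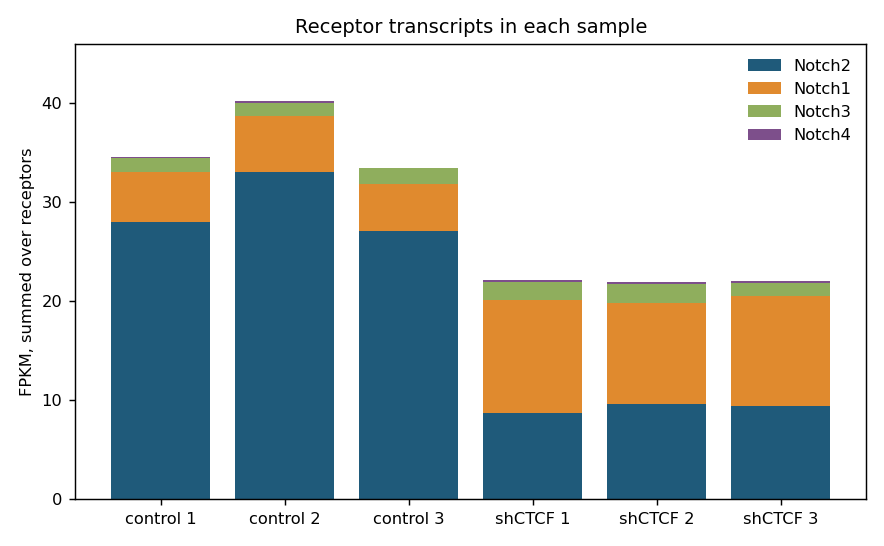
FPKM of the 4 Notch receptor genes (vertical axis, stacked) in each of the 3 control and 3 shCTCF samples (horizontal axis). The stacks reach 33.5 to 40.2 FPKM in controls and 21.9 to 22.1 FPKM in shCTCF samples, and the Notch2 part shrinks while the Notch1 part grows.

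Of the ligands, Jag2 was the one with a level that could be tested. Jag2 (NM_010588) encodes a membrane ligand of the Jagged family and measured 7.70, 8.82 and 7.24 FPKM in controls and 4.29, 4.47 and 4.24 FPKM in shCTCF samples. The groups did not overlap and the mean fell from 7.92 ± 0.811 to 4.33 ± 0.124 FPKM. The log2 fold change was -0.74 ± 0.10 in limma (adjusted p = 0.00026) and -0.50 ± 0.10 in edgeR (adjusted p = 0.00081), and without control replicate 2 the values were -0.67 and -0.44. Relative to the summed receptors, Jag2 was at 0.223, 0.219 and 0.217 in controls and at 0.194, 0.204 and 0.192 in shCTCF samples, a smaller difference than that of Jag2 itself. Jag1, the other Jagged ligand, was at or below 0.0736 FPKM in every sample and had 1, 1 and 0 counts in controls and 5, 0 and 3 counts in shCTCF samples, so that a difference was not detectable at this depth. The 6 further ligands listed for the pathway (Dll1, Dll3, Dll4, Dlk1, Dlk2 and Dner) stayed at or below 0.25 FPKM, with Dll1, Dlk2 and Dner listed at 0 in all samples. Jag2 was therefore the most abundant transcript of the 8 ligands in each of the 6 samples.

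Adam10, which encodes the protease that makes the first cut after ligand binding, had the highest level of the 10 genes in both groups. Its values were 41.2, 29.5 and 42.7 FPKM in controls and 37.0, 35.8 and 39.3 FPKM in shCTCF samples. The shCTCF values lay inside the range of the controls, whose spread came from control replicate 2. In limma the log2 fold change was 0.00 with a 95% confidence interval of -0.32 to 0.32 (adjusted p = 0.994), and in edgeR it was 0.16 ± 0.12 (adjusted p = 0.265), or -0.01 when counts were scaled by library size only. Without control replicate 2 the FPKM difference was -0.16 and passed the threshold (adjusted p = 0.0300 in limma), while the count difference was 0.02 (adjusted p = 0.710 in edgeR).

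The nuclear proteins gave less stable results than the receptors. Rbpj, which encodes the DNA-binding protein of the pathway, measured 18.3, 10.8 and 16.7 FPKM in controls and 10.4, 10.5 and 9.98 FPKM in shCTCF samples. Control replicate 2 was only slightly above the shCTCF samples, whereas the other controls were well above them. These values sum several transcripts. NM_001080927 had 11.7, 10.8 and 13.6 FPKM in controls and 6.50, 8.21 and 9.98 FPKM in shCTCF samples. NM_009035 had 6.52, 0 and 3.03 FPKM in controls and 3.88, 2.29 and 0 FPKM in shCTCF samples. With the transcript of the highest mean alone the log2 fold change was -0.51 (adjusted p = 0.0312 in limma). The log2 fold change of the sum was -0.50 ± 0.17 (adjusted p = 0.0322 in limma), and it was -0.71 without control replicate 2 (adjusted p = 4e-05). After scaling to the same median FPKM it was -0.33, which did not pass the threshold (adjusted p = 0.115), and leaving out control replicate 1 or 3 or any shCTCF sample also lost the call (adjusted p between 0.0733 and 0.0976). The change itself was -0.36 and -0.42 without control replicates 1 and 3 and -0.48 to -0.51 without a shCTCF sample, and it was -0.50 with an adjusted p of 0.0617 without the filter on low values. The counts could not test Rbpj, as only 5.12% of its exonic bases belong to a single one of its 5 transcript accessions and fragments shared by accessions were not counted.

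Maml1, a coactivator of the RBPJ complex, had 9.29, 12.3 and 8.64 FPKM in controls and 12.2, 11.9 and 10.99 FPKM in shCTCF samples. On FPKM the groups overlapped through control replicate 2, and the log2 fold change of 0.21 (95% confidence interval -0.09 to 0.51) did not pass the threshold (adjusted p = 0.175 in limma). It passed without control replicate 2 (0.35, adjusted p = 0.00352) and after scaling to the same median (0.38, adjusted p = 0.0330). Counts of Maml1 were 603, 201 and 606 in controls and 735, 633 and 750 in shCTCF samples. Scaled to library size these did not overlap, and edgeR gave 0.46 ± 0.11 (adjusted p = 0.00276).

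Of the 2 Hes family genes among the members, Hes1 encodes a repressor of differentiation genes and is a classic Notch target, whereas Hes6 encodes a related protein that can counteract HES1. The level of Hes6 is not read here as a measure of Notch activity. Hes1 was low, with 1.67, 0.996 and 1.98 FPKM in controls and 0.279, 0.229 and 0.858 FPKM in shCTCF samples. All shCTCF values were below all control values, and the log2 fold change was -0.81 ± 0.22 (adjusted p = 0.0111 in limma) and -0.98 without control replicate 2. The means of 1.55 ± 0.501 and 0.455 ± 0.350 FPKM differed 3.40-fold, and the change was -1.69 with a pseudocount of 0.1 and -1.94 with 0.01. Its mean over the 6 samples, 1.00 FPKM, was just at the filter, which it reached only through the controls. The counts were 38, 4 and 39 in controls and 7, 11 and 17 in shCTCF samples. Scaled by the TMM factors of edgeR, control replicate 2 with its 4 counts lay among the shCTCF samples. The edgeR log2 fold change of -1.23 ± 0.36 (adjusted p = 0.00973) lost the threshold when control replicate 1, control replicate 3 or shCTCF replicate 1 was left out, with adjusted p between 0.0523 and 0.0536 and changes of -1.08, -1.11 and -0.98. Without control replicate 2 it was -1.36.

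Hes6 measured 12.2, 20.8 and 12.2 FPKM in controls and 10.2, 12.8 and 12.5 FPKM in shCTCF samples. Apart from control replicate 2 the groups covered the same range. Its log2 fold change was -0.29 (95% confidence interval -0.76 to 0.17, adjusted p = 0.217 in limma), and it was -0.05 without that library. Hes6 had 0 counts in all samples, where 4.85% of its exonic bases belong to 1 accession alone, so that the counts hold no information on it.

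**Figure D3:**
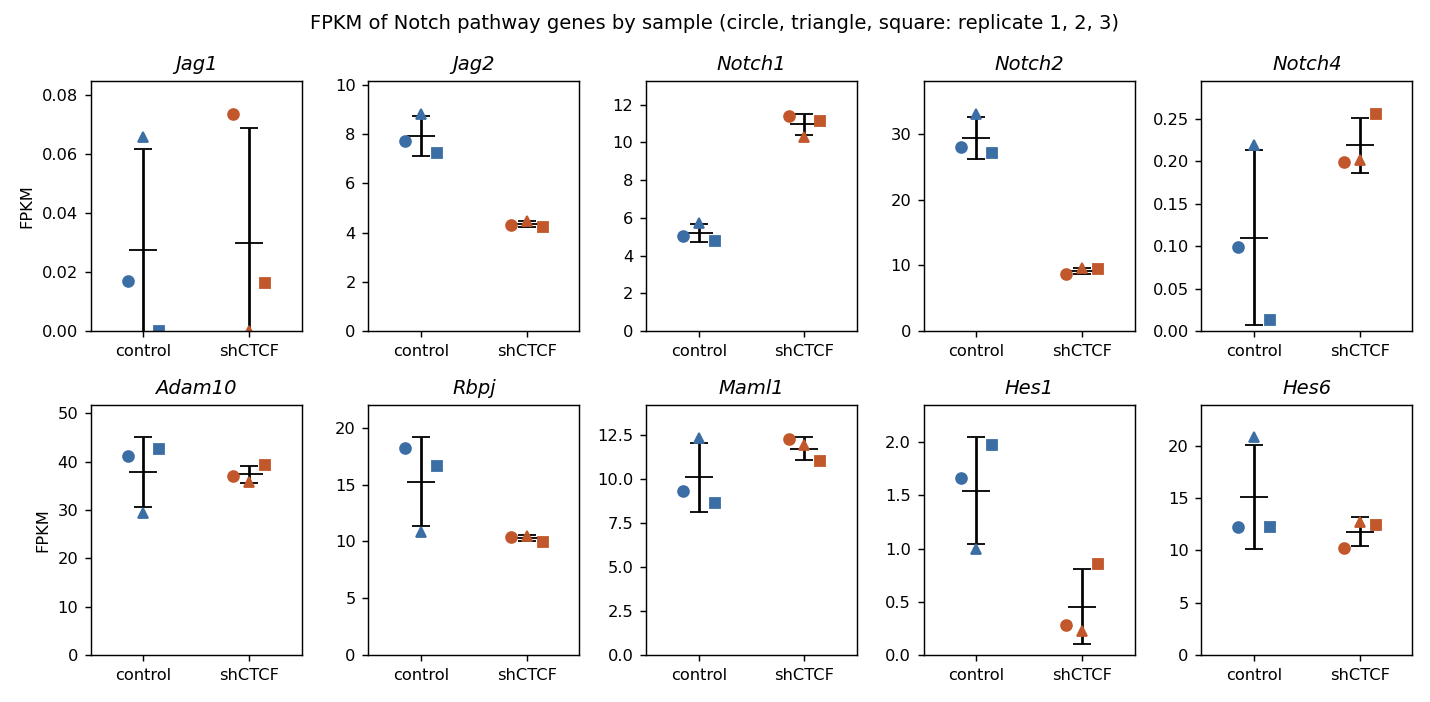
FPKM (vertical axes, starting at 0) of the 10 members in control and shCTCF samples (horizontal axes), with symbols for replicates 1 (circle), 2 (triangle) and 3 (square) and bars for the mean ± SD of 3 samples. Notch2, Jag2, Rbpj and Hes1 have all shCTCF points below the control points, Notch1 has them above, and the triangle of control replicate 2 sits apart for Adam10, Rbpj, Maml1 and Hes6.

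Of the 8 members tested on FPKM, 5 passed the threshold, 1 up (Notch1) and 4 down (Notch2, Jag2, Rbpj and Hes1), while 73.0% of all 9974 tested genes passed it, 28.8% up and 44.2% down. The values of the groups did not overlap for the same 5 members, compared with 76.6% of all tested genes. In the counts, 6 of 7 tested members passed, 3 up (Notch1, Notch4 and Maml1) and 3 down (Notch2, Jag2 and Hes1), against 69.1% of 7339 genes, 34.8% up and 34.3% down. A change past the threshold was thus common among all genes and sets the members apart in neither table. The median log2 fold change of the tested members was -0.39 on FPKM and 0.16 on counts, beside -0.17 and -0.02 for all tested genes. Scaling the samples to the same median moved the median of all genes on FPKM to -0.01 and the share of upward calls from 39.5% to 49.1%, and the members called were then 2 up and 3 down. Over all 9974 genes, 3480 were then called up and 3606 down. In the counts, scaling by library size only moved the median of all genes to -0.19 and the share of upward calls from 50.3% to 41.5%, and the members called stayed at 3 up and 3 down. Over all 7339 genes, 2166 were then called up and 3059 down. Among all genes tested, 4.73% on FPKM and 6.36% on counts had a log2 fold change as low as that of Notch2 or lower, and 12.3% and 14.9% had one as high as that of Notch1 or higher. Of the 6 members tested in both tables, Notch1 rose in both, Notch2, Jag2 and Hes1 fell in both, and none was called in opposite directions. Hes1 passed the filter of each table only through the controls, and Notch4 passed that of the counts only through the shCTCF samples. The calls of Hes1 and Notch4 are therefore weak support.

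**Figure D4:**
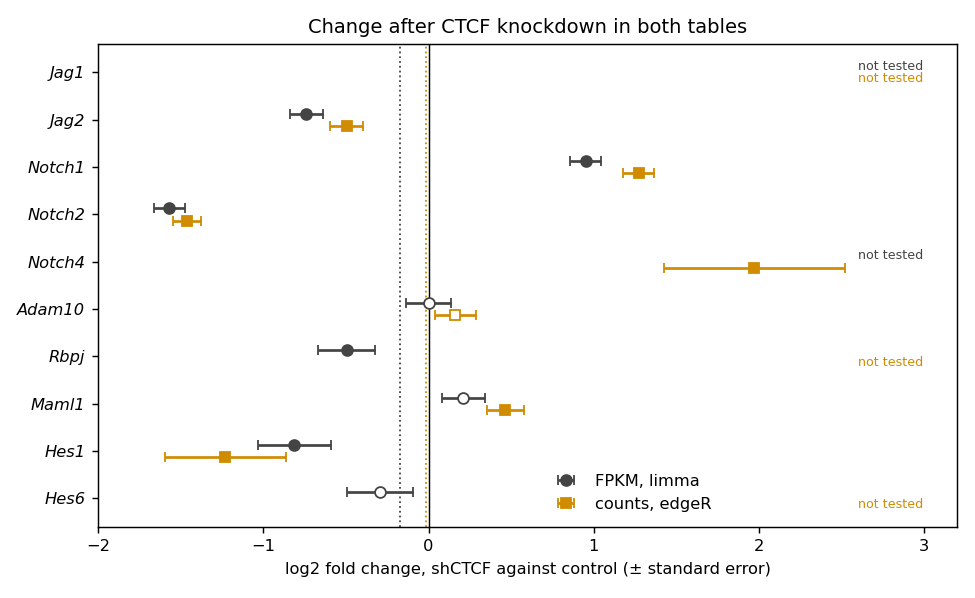
Log2 fold change of shCTCF against control with its standard error (horizontal axis) for each member (vertical axis), from limma on log2(FPKM + 1) (circles) and edgeR on counts (squares), with filled symbols for an adjusted p under 0.05 and open symbols otherwise. Dotted lines mark the medians of all tested genes, -0.17 on FPKM and -0.02 on counts, and both tables place Notch2 at or below -1.46 and Notch1 at or above 0.95.

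The order of transcript levels per length among the members also differed between the groups. In controls it ran from Adam10 (37.8 FPKM) through Notch2 (29.4), Rbpj (15.3), Hes6 (15.1), Maml1 (10.1), Jag2 (7.92), Notch1 (5.18), Hes1 (1.55) and Notch4 (0.110) to Jag1 (0.0276). The sample ranges of Adam10 and Notch2 overlapped, as did each neighbouring pair from Rbpj to Jag2 and the pair of Notch4 and Jag1. In shCTCF samples the order was Adam10 (37.4 FPKM), Hes6 (11.8), Maml1 (11.7), Notch1 (10.9), Rbpj (10.3), Notch2 (9.21), Jag2 (4.33), Hes1 (0.455), Notch4 (0.219) and Jag1 (0.0299). There Adam10 stood clear of the rest and the neighbours from Hes6 to Rbpj overlapped, as did Hes1 and Notch4, and Notch2 had moved from second to sixth place.

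The wider pathway was described by 67 further genes grouped by role, of which 51 were tested on FPKM. In limma 13 of them rose, 23 fell and 15 did not pass the threshold, with a median log2 fold change of -0.03, beside the 73.0% of all tested genes that passed. When samples were scaled to the same median, the split was 21 up and 20 down, beside 3480 up and 3606 down of all 9974 genes. Without control replicate 2 the split was 18 up and 23 down, beside 3129 up and 4789 down of all 10012 genes. In the counts, 32 were tested in edgeR, 14 rose, 11 fell and 7 did not pass, beside the 69.1% of all tested genes that passed in that table. This became 7 up and 12 down when counts were scaled by library size only, beside 2166 up and 3059 down of all 7339 genes. Without control replicate 2 the split was 15 up and 12 down of 34 tested, beside 2883 up and 2776 down of all 7666 genes. Of the 32 tested in both tables, 8 rose in both, 11 fell in both and none was called in opposite directions.

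Glycosyltransferases of the Fringe family add sugars to the receptor and thereby tune which ligand it answers. Of 6 genes for receptor glycosylation, 3 fell on FPKM and none rose, beside 44.2% of all tested genes that fell and 28.8% that rose. The median log2 fold change over the 6 was -0.22, beside -0.17 for all tested genes. Mfng went from 32.4 ± 3.38 to 20.8 ± 0.455 FPKM (log2 fold change -0.61, adjusted p = 0.00038) and Rfng from 11.7 ± 1.145 to 7.64 ± 0.245 FPKM (-0.55, adjusted p = 0.00098), and both also fell in the counts (-0.42 and -0.37). In the counts 2 of the 5 tested genes of this group rose and 3 fell, beside 34.8% and 34.3% of all genes tested there.

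The 8 cleavage genes all passed the threshold on FPKM, 4 in each direction, beside 73.0% of all tested genes. Of the 5 tested in the counts 2 rose and 1 fell, beside 34.8% and 34.3% of all genes tested there. Furin, which cuts the receptor during its maturation, rose from 198 ± 27.4 to 566 ± 56.4 FPKM (1.51, adjusted p = 9.6e-06), but in the counts, where 9% of its exonic bases lie in 1 accession alone, its log2 fold change was -0.24 (adjusted p = 0.190 in edgeR). Psen2, a catalytic subunit of γ-secretase, rose from 29.6 ± 2.91 to 69.2 ± 3.73 FPKM (1.20, adjusted p = 8.8e-06). Psen2 was not tested in the counts. Aph1a, another γ-secretase subunit, fell on FPKM (-0.63, adjusted p = 0.00037) and was at -0.11 in the counts (adjusted p = 0.608 in edgeR).

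Among 11 tested genes of endocytosis and ubiquitin ligases, 4 rose and 4 fell on FPKM, beside 28.8% and 44.2% of all tested genes. The Deltex ligase Dtx4 rose from 6.66 ± 0.142 to 39.0 ± 1.91 FPKM (log2 fold change 2.38, adjusted p = 1.5e-07) and Dtx3l from 4.89 ± 0.580 to 26.6 ± 1.02 FPKM (2.23, adjusted p = 6.9e-07), with 2.68 and 2.64 in the counts. Some Deltex proteins bind the intracellular part of Notch, whereas Dtx3l is better known for its partnership with PARP9. Mib2, a ligase that acts on Notch ligands in the sending cell, fell from 18.8 ± 1.55 to 5.09 ± 0.233 FPKM (-1.70, adjusted p = 1.8e-06 in limma). In the counts its log2 fold change was -1.66 ± 0.42. That value rested on few counts, 21, 10 and 19 in controls and 6, 4 and 7 in shCTCF samples. Only 2.4% of the Mib2 exonic bases lie in 1 accession alone. Dtx3 fell in both tables (-0.50 on FPKM and -0.33 in the counts).

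Nuclear cofactors act with RBPJ either to activate or to repress target genes. On FPKM, where 44.2% of all tested genes fell and 28.8% rose, the coactivators and corepressors called were mostly lower. Of 6 tested coactivators 2 fell and none rose, namely the acetyltransferase Kat2a, from 43.6 ± 2.52 to 11.2 ± 0.747 FPKM (-1.87, adjusted p = 7e-07), and Maml3, a relative of Maml1, from 17.0 ± 0.384 to 9.08 ± 0.338 FPKM (-0.84, adjusted p = 2.5e-05). In the counts 4 coactivators were tested, of which 2 rose, Snw1 (0.21) and Ep300 (0.26), both named after their values were seen, and 1 fell, Maml3 (-0.71), while Kat2a was not tested. Of 13 tested corepressors 8 fell and 2 rose. Spen, which bridges RBPJ to histone deacetylases, fell from 15.8 ± 1.52 to 6.98 ± 0.152 FPKM (-1.07) and Ctbp1 from 115 ± 9.81 to 56.1 ± 1.58 FPKM (-1.02). The Groucho-type corepressors Tle4 and Tle1, which act with Hes proteins, rose from 2.602 ± 0.549 to 8.91 ± 0.283 FPKM (1.47) and from 4.40 ± 0.208 to 9.88 ± 1.99 FPKM (1.00). The adjusted p of these 4 genes in limma lay between 9.9e-06 and 0.00028, and none of them was tested in the counts. There 5 corepressors were tested, with 1 up and 2 down, while 34.8% of all tested genes rose and 34.3% fell.

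Turnover of the cleaved receptor was represented by 3 genes. On FPKM 1 rose, 1 fell and 1 did not pass the threshold, beside the 73.0% of all tested genes that passed. Cdk8, a kinase that marks the intracellular part of Notch for degradation, fell from 36.3 ± 7.13 to 15.2 ± 0.397 FPKM (-1.18, adjusted p = 0.00013 in limma). Cdk8 had 0 counts in every sample and was not tested in the counts. Fbxw7, the ubiquitin ligase component that recognises this mark, rose from 9.58 ± 0.271 to 15.7 ± 0.492 FPKM (0.66, adjusted p = 9.9e-05 in limma). It was also called in the counts (0.58, adjusted p = 0.0310 in edgeR), where 17.6% of its exonic bases lie in 1 accession alone. Scaled by the TMM factors of edgeR these counts overlapped between the groups, as control replicate 2 lay above shCTCF replicates 2 and 3.

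Of 9 further target genes, 3 were expressed highly enough to be tested. Hey2, a repressor related to Hes1, measured 2.28, 2.14 and 3.23 FPKM in controls and 5.99, 6.38 and 5.55 FPKM in shCTCF samples. Its groups did not overlap, and it rose in both tables (0.99, adjusted p = 0.00032 in limma, and 1.22, adjusted p = 5.7e-05 in edgeR), while Hes1 fell in both. The cyclin gene Ccnd1 rose from 8.24 ± 1.46 to 13.3 ± 0.658 FPKM (0.64, adjusted p = 0.00175) and in the counts (0.79). Myc, a growth regulator that is a Notch target in T cells, fell from 184 ± 21.0 to 127 ± 5.42 FPKM (-0.53, adjusted p = 0.00088) and was not tested in the counts. The other 6, Hes5, Hes7, Hey1, Heyl, Nrarp and Dtx1, stayed under 1 FPKM in every sample.

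**Figure D5:**
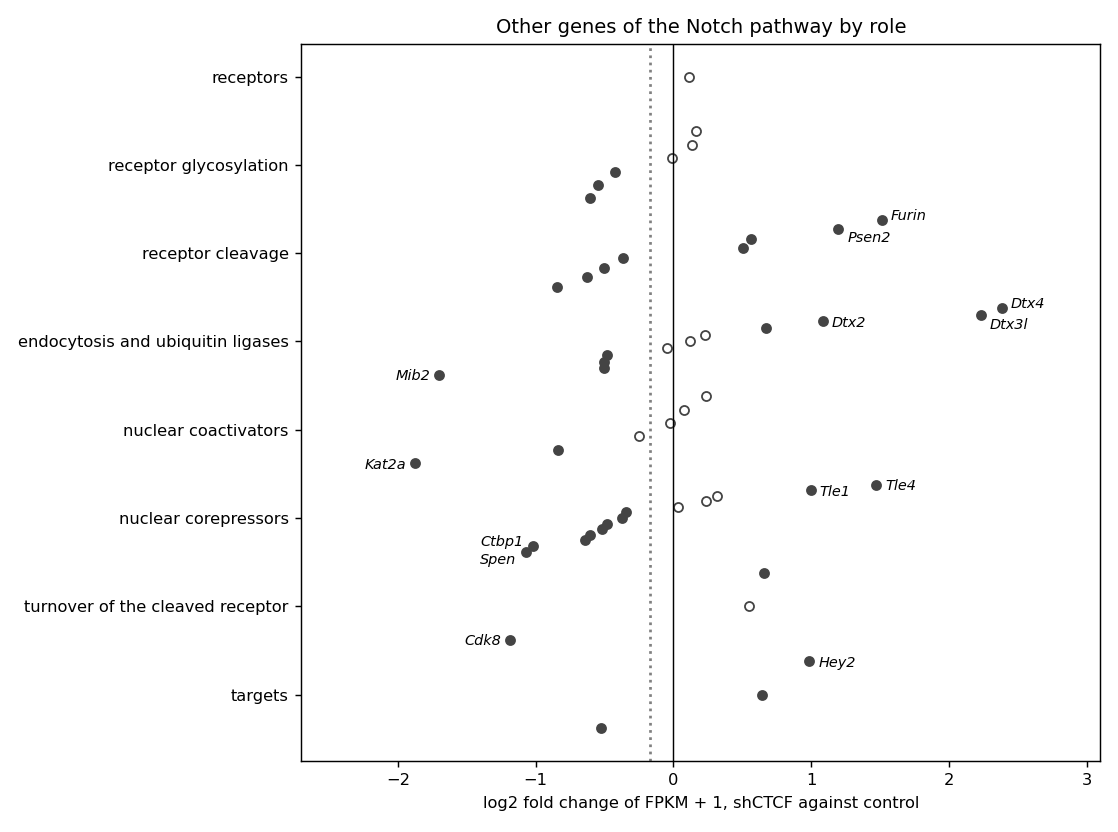
Log2 fold change on log2(FPKM + 1) of shCTCF against control (horizontal axis) for the 51 tested pathway genes outside the members, grouped by role (vertical axis), with filled points for an adjusted p under 0.05 in limma, open points otherwise, and names for genes beyond 0.95 in either direction. The dotted line is the median of all tested genes (-0.17). Points lie on both sides of it for every role except the receptors, where Notch3 alone was tested.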

How the data were processed

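RNA was measured in 3 control and 3 shCTCF samples with stranded mRNA libraries sequenced as pairs of 150-base reads. The authors aligned reads to mouse build mm9 with HISAT2 (version given as 4.8.2), calculated FPKM values with Cufflinks 2.2.1 and deposited them normalized for depth. The deposited counts are whole fragments per RefSeq accession from featureCounts 1.6.2, made without strand and without normalization, and fragments that overlapped exons of more than 1 accession were left unassigned, so genes with several overlapping accessions lost counts.

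Accessions were named with a RefSeq table of assembly GRCm38.p6 (41680 of 41876 FPKM rows and 41181 of 41388 counted accessions), and values were summed per symbol. Accessions with no symbol held at most 0.622% of a sample's counts. Genes whose mean reached 1 FPKM were tested on log2(FPKM + 1) with limma 3.58.1 (eBayes with trend), and counts were tested with edgeR 4.0.16 (quasi-likelihood test, TMM, filterByExpr, R 4.3.3). Tests were two-sided, adjusted by Benjamini-Hochberg over all genes tested, with a threshold of 0.05. Total counts were 1686052 to 7044272 per sample. The floor of 3 counts was 0.426 to 1.78 CPM (counts scaled to the library total) and covers counting error only, since PCR copies were not told apart. No pair of replicates agreed within sampling noise (chi-square per degree of freedom 2.07 to 8.17).

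The members and the gene lists were chosen with earlier results of these data known. All members were named, and of the other pathway genes the 2 that rose and the 2 that fell most on FPKM in each role, among those past the threshold without overlap of the groups, together with Notch3; 1 gene that the rule names is not reported here. Both fits were tested on simulated data. Alternatives were other pseudocounts (0.1 and 0.01), filters, scalings, accession summaries, DESeq2 1.42.0, limma without the trend, a replicate block and the omission of each replicate.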

Additional observations from a re-analysis of the deposited data

How the results depend on the processing

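The number of members called on FPKM was 5, and it ranged from 3 to 7 when 1 sample was left out. It was 3 of 7 tested without control replicate 1 and 3 of 7 without control replicate 3, where Hes1 fell below the filter and Rbpj lost its call. Of all genes, 6924 of 9999 and 6869 of 9997 were called in these fits. Without control replicate 2 the number was 7 of 8, beside 7918 of all 10012 genes. The calls of Notch1, Notch2 and Jag2 held in the same direction under all alternatives run in both tables, with an adjusted p of at most 0.00558. Adam10, which was not called, changed sign on FPKM without control replicate 2 (-0.16) and without shCTCF replicate 3 (-0.03), with a range of -0.16 to 0.10 over the samples left out, and on counts with scaling by library size only (-0.0076). The cause was not tested. Of 190 values of single members under the alternatives, 175 kept direction and call, 10 lost the threshold (7 for Rbpj on FPKM and 3 for Hes1 on counts), 2 gained it in the same direction (Maml1 on FPKM) and 3 changed sign (Adam10), 1 of which also passed the threshold (FPKM without control replicate 2, adjusted p = 0.0300 in limma). Same-numbered samples of the groups did not deviate together (correlations of -0.041 to 0.0395 on FPKM and -0.0114 to 0.0252 on counts), so the numbers were not taken as pairs. With the replicate number as a block, 7136 genes were called on FPKM and 4889 on counts, compared with 7280 and 5072 without it, the members called stayed at 5 and 6, and the block changed no call of a member. The small library of control replicate 2 and the loss of fragments shared between accessions limit what the counts show for Hes1, Notch4, Jag1, Rbpj and Hes6.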
